A study of Mus musculus with 8 samples.

Results

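The dual-specificity phosphatases are enzymes that remove phosphate from both tyrosine and serine or threonine residues, and most of the 10 genes described here encode those that switch off mitogen-activated protein (MAP) kinases. MAP kinases carry signals from the T cell receptor through 3 main branches, ERK, JNK and p38, and each is active while a tyrosine and a threonine of its activation loop are phosphorylated. Several of the phosphatase genes are themselves induced by the kinases they inactivate, so that they act as negative feedback. The genes were Dusp1, Dusp2, Dusp4 and Dusp5, which encode inducible nuclear MAP kinase phosphatases, Dusp6 and Dusp7, which encode cytoplasmic phosphatases of ERK, Dusp10 and Dusp16, whose products act mainly on JNK and p38, and the atypical members Dusp14, a small phosphatase, and Dusp11, which acts on the 5' ends of RNA rather than on MAP kinases. They were chosen by gene symbol, and all 10 were found among the 27179 genes of the expression table. All 10 were also among the 12605 genes tested, which had a mean of at least 0.5 RPKM (reads of a gene, scaled to its counted length and its library's total) over the libraries. Dusp14 reached this mean only through its stimulated libraries.

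CD4+ T cells were purified from the spleens of mice aged 8 weeks of the strain C.Cg-Foxp3tm2Tch/J, a Foxp3 reporter strain on a BALB/c background, which all groups share. The Cd offspring came from parents that drank water with 10 ppm cadmium chloride around mating and through gestation, and the control offspring from parents on unspiked water. Each was analysed unstimulated, lysed at 0 hours, and stimulated for 16 hours with beads that carry anti-CD3 and anti-CD28, with 2 libraries (replicates 6 and 7) in each of the 4 groups. The time in culture and the stimulation by beads therefore cannot be told apart, and in bulk RNA neither can fewer cells of a type and less RNA per cell. The cells were negatively selected and sorted, and the study elsewhere describes the sequenced cells as conventional T cells without CD25, where the sample labels name CD4+ T cells.

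The libraries held 15542732 to 25486791 reads on genes. All 6 T cell markers were at 97.6 RPKM or more in every library, the B cell gene Ms4a1 and the monocyte gene Cd14 were listed at 0 in every library, and Cd8a was at most 0.16 RPKM. The summed level of 3 natural killer cell genes, most of it Prf1, was 20.3 to 23.7 RPKM in unstimulated and 1.54 to 1.95 RPKM in stimulated cells, while Ncr1 was at most 0.0311 RPKM. The summed level of 5 myeloid genes, most of it Itgam, was 1.88 to 2.06 RPKM in unstimulated and 0.416 to 0.597 RPKM in stimulated cells. That of 5 B cell genes, most of it Cd79a (2.87 to 4.73 RPKM), was 3.12 to 3.76 and 4.19 to 4.89 RPKM. The 2 CD8 genes summed to 9.52 to 11.8 RPKM in all 4 groups, most of it Cd8b1, and erythroid genes to at most 0.096 RPKM. The 4 regulatory T cell markers summed to 14.9 to 19.2 RPKM in unstimulated and 140 to 173 RPKM in stimulated cells, mainly through Il2ra and Ctla4, while Foxp3 was between 4.48 and 7.69 RPKM. The part of these lists in the differences between stimulated and unstimulated cells was not tested. One unstimulated library of Cd offspring, replicate 7, stood apart in the inducible genes, and the comparisons of Cd with control offspring are given with and without it.

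Dusp1 was the highest in unstimulated and Dusp2 and Dusp5 in stimulated cells. The promoters of Dusp1 and Dusp5, which fell and rose with stimulation, are shown because they hold the 2 rarest of the 5 motifs searched. Both windows run from 250 bases before to 50 bases after the RefSeq transcript start (GRCm38.p6), that of Dusp1 at chr17:26508423-26508722 on the minus strand and that of Dusp5 at chr19:53528895-53529194 on the plus strand, with every motif match in capitals.
Dusp1: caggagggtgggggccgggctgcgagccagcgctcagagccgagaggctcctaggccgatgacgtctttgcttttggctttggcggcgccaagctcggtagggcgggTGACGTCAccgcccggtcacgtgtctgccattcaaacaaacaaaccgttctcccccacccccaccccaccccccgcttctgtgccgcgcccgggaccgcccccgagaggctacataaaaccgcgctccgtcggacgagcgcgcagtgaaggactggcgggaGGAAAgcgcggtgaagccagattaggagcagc
Dusp5: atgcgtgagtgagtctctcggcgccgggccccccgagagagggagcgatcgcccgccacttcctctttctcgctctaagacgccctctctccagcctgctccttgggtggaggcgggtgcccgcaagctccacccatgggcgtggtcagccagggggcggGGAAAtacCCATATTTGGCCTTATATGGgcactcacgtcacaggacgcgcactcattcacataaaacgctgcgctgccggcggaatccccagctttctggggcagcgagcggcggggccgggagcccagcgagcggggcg
In Dusp1, the capitals mark a cyclic AMP response element (CRE, TGACGTCA), which begins at base -143 from the start, and a GGAAA, the core bound by NFAT, at base 19. In Dusp5 they mark a GGAAA at base -90 and, after 3 bases in lower case, 2 adjoining CArG boxes at bases -82 and -72, the motif of serum response factor. A CArG box was found in 1.63% and the CRE in 1.79% of 32851 RefSeq promoter windows of this length, on either strand. Of the 9 members with a window, 1 held a CArG box (Dusp5), 1 the CRE (Dusp1), 1 the ETS motif CCGGAA (Dusp14; 14.9% of all windows) and 4 the GGAAA (Dusp1, Dusp5, Dusp6 and Dusp16; 61.3% of all windows). The AP-1 motif TGANTCA was in 0 of the 9 and in 7.81% of all windows. The letters GGAA are shared by the ETS and NFAT motifs. These matches describe the sequence of the window only.

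**Figure D1:**
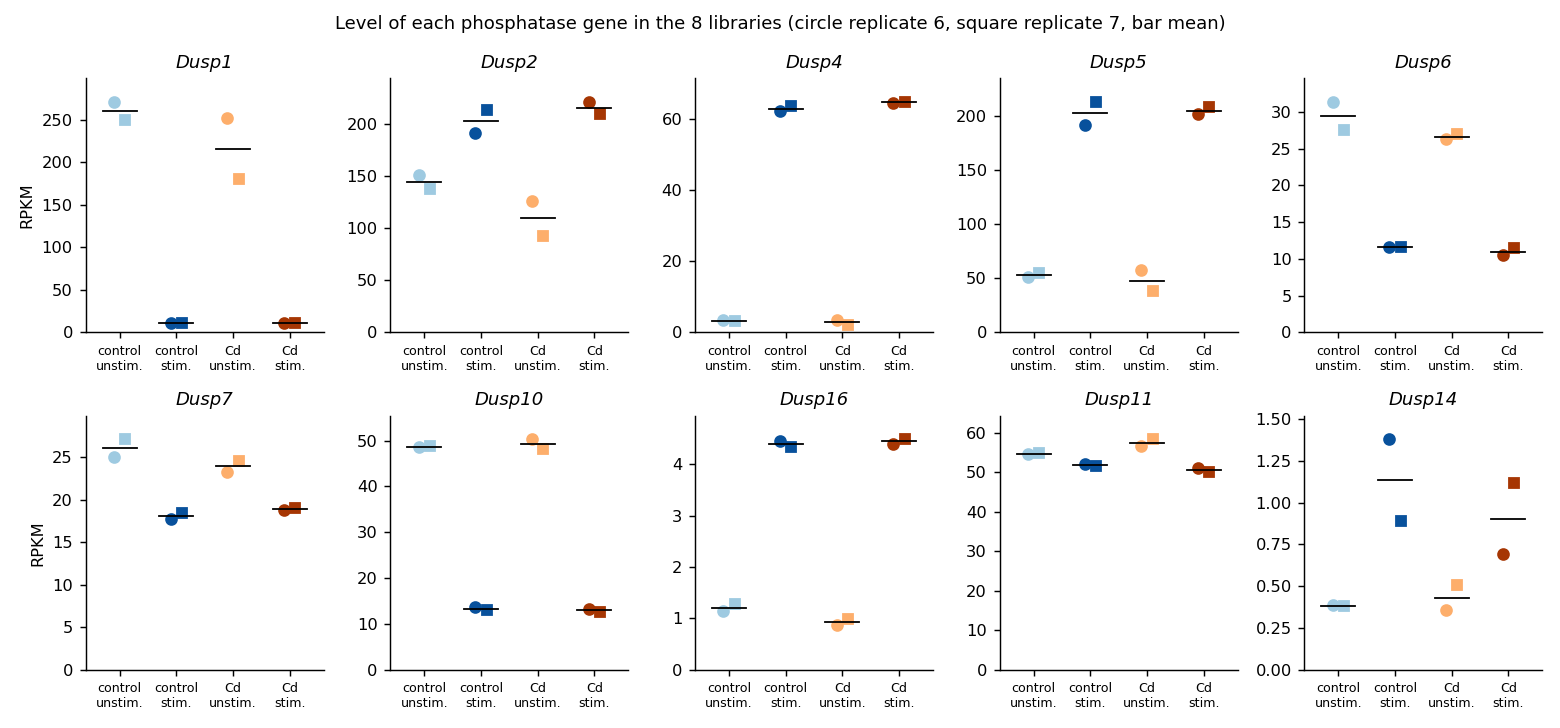
Level in RPKM (vertical axis, from 0, a scale of its own for each gene) of the 10 phosphatase genes in the 4 groups on the horizontal axis. Circles are replicate 6, squares replicate 7 and bars the mean of the 2 libraries. Dusp1, Dusp6, Dusp7 and Dusp10 lie lower and Dusp2, Dusp4, Dusp5, Dusp14 and Dusp16 higher in stimulated than in unstimulated cells of both kinds of offspring.

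Stimulation was compared first in control offspring. Of the 10 genes, 7 were called at an adjusted p under 0.01 (limma, adjusted over all genes tested) and more than 2-fold: Dusp4, Dusp5, Dusp14 and Dusp16 rose, and Dusp1, Dusp6 and Dusp10 fell. Over all 12605 genes, 18.7% were called, 11.5% higher and 7.17% lower. Dusp14 was among the 7 and had reached the tested minimum only through its stimulated libraries. At a minimum mean of 1 RPKM it was not tested, and 6 of the 9 members tested were called. In Cd offspring 6 of the 10 were called, 3 higher and 3 lower, where 18.6% of all genes were called, 11.4% higher and 7.24% lower. The call of Dusp14 was the only one that differed between the 2 kinds of offspring, and the difference in its response was itself not called (adjusted p = 0.749). At any fold, 8 of the 10 passed in control offspring, where 51.7% of all genes did (29.9% higher and 21.8% lower), and 9 in Cd offspring, against 52.5% (30.2% higher and 22.3% lower). The libraries of the 2 groups did not overlap for any of the 10 genes in either kind of offspring, as was the case for 83.1% of all genes. The median size of the log2 fold change was 1.56 over the 10 genes and 0.48 over all genes in control offspring, and 1.60 and 0.49 in Cd offspring.

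Among the inducible nuclear phosphatases, Dusp1, an early-response phosphatase of all 3 branches, was the one that fell. In unstimulated control cells it was at 272 and 250.2 RPKM, and after stimulation at 10.7 and 10.9 RPKM. In Cd offspring it was at 252 and 180.0 RPKM without and 11.0 and 11.4 RPKM with stimulation. The mean was thus 24.2-fold lower in stimulated control cells and 19.3-fold lower in stimulated Cd cells, and every unstimulated library lay far above every stimulated one. The log2 fold change was -4.58 (SE 0.14, adjusted p = 4.06e-07 from limma) in control and -4.24 (SE 0.14, adjusted p = 5.77e-07) in Cd offspring. The 7179 to 9515 reads on Dusp1 in unstimulated libraries became 322 to 564. Dusp1 lies on chromosome 17 from 26505591 to 26508472 on the minus strand, a span in which Ergic1 and the pseudogene Gm8225 are annotated on the other strand, and another pseudogene and an intronic transcript on the same strand.

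Dusp4 moved the other way and over a similar range. Its product is a nuclear phosphatase that is close in sequence to that of Dusp1. It was at 3.37 and 3.29 RPKM in unstimulated and 62.2 and 63.6 RPKM in stimulated control cells, a rise of 18.9-fold. In Cd offspring it went from 3.59 and 2.17 RPKM to 64.6 and 64.9 RPKM, a rise of 22.5-fold. The log2 fold changes were 4.20 (SE 0.19, adjusted p = 1.61e-06) and 4.49 (SE 0.19, adjusted p = 1.35e-06). The stimulated libraries agreed closely, within 2.08% of each other in control and 0.436% in Cd offspring, and the 2 unstimulated Cd libraries differed by 49.3%. No other annotated gene overlaps Dusp4 (chromosome 8, 34807610 to 34819894).

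Dusp5 encodes a nuclear phosphatase specific for ERK, whose transcription ERK signalling is known to induce. It rose from 51.5 and 54.5 RPKM to 192 and 213 RPKM in control cells, 3.82-fold. In Cd offspring it was at 57.2 and 38.02 RPKM in unstimulated and 202 and 208 RPKM in stimulated cells, 4.30-fold higher. Every stimulated library lay above every unstimulated one. The log2 fold change was 1.93 (SE 0.16, adjusted p = 3.36e-05) in control and 2.13 (SE 0.16, adjusted p = 2.08e-05) in Cd offspring. An antisense transcript is annotated over Dusp5 (chromosome 19, 53529145 to 53541809), and whether the counting used the strand is not given in the sources used here.

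Dusp2, a nuclear phosphatase found mainly in blood cells, was high in every library and moved less. Control cells had 151 and 138 RPKM without and 192 and 214 RPKM with stimulation. Cd cells had 126 and 93.1 RPKM without and 222 and 210.1 RPKM with stimulation. The groups did not overlap, and neither difference was called. In control offspring the log2 fold change was 0.49 (SE 0.13) with an adjusted p of 0.0138 from limma, and in Cd offspring it was 0.99 (SE 0.13) with an adjusted p of 0.000401, at 1.97-fold just under the threshold of 2. Without the Cd unstimulated replicate 6 the latter was 1.21 and without the Cd stimulated replicate 7 it was 1.03, and both then passed. Without the Cd unstimulated replicate 7 it was 0.77 and without the Cd stimulated replicate 6 it was 0.95.

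**Figure D2:**
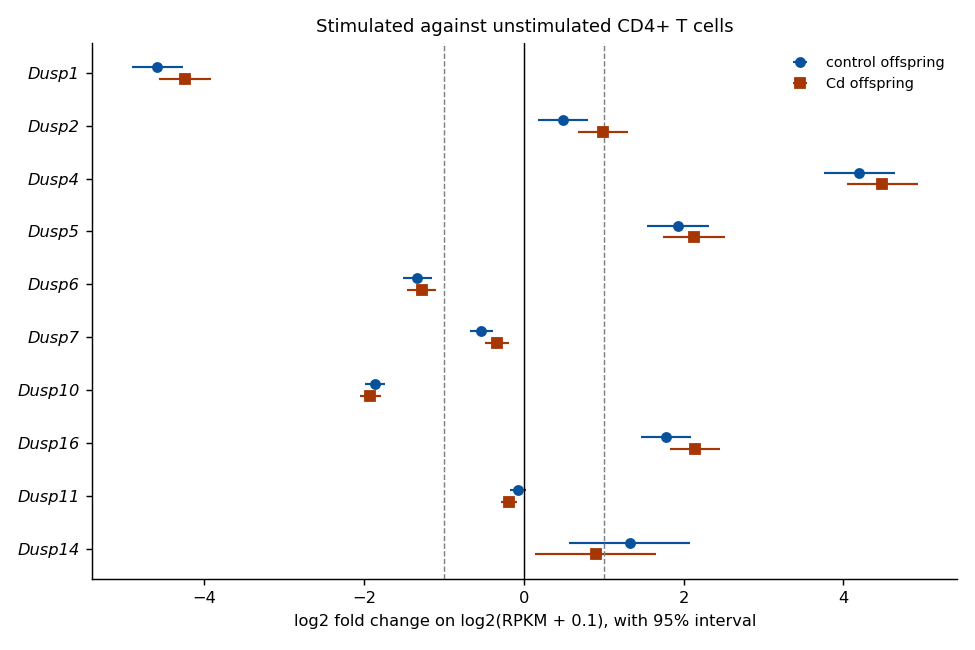
Log2 fold change of each phosphatase gene, stimulated against unstimulated cells, on the log2(RPKM + 0.1) scale (horizontal axis), in control (circles) and Cd offspring (squares). Lines are 95% intervals from limma and dashed lines mark 2-fold. The points of Dusp4, Dusp5 and Dusp16 lie beyond 2-fold on the right and those of Dusp1, Dusp6 and Dusp10 beyond 2-fold on the left in both.

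The 2 cytoplasmic ERK phosphatases were both lower after stimulation. Dusp6 fell from 31.4 and 27.6 RPKM to 11.7 and 11.7 RPKM in control cells, and from 26.3 and 27.0 RPKM to 10.5 and 11.4 RPKM in Cd cells. Its mean was 2.53-fold lower in control offspring (log2 fold change -1.33, SE 0.077, adjusted p = 4.76e-06) and 2.43-fold lower in Cd offspring (-1.27, SE 0.077, adjusted p = 5.99e-06). Dusp7 had 25.1 and 27.2 RPKM in unstimulated and 17.7 and 18.4 RPKM in stimulated control cells, and 23.3 and 24.6 against 18.8 and 19.1 RPKM in Cd cells. Its log2 fold changes, -0.53 (SE 0.062, adjusted p = 0.000179) and -0.33 (SE 0.062, adjusted p = 0.00213), were larger than the spread between libraries but under 2-fold. All unstimulated libraries lay above all stimulated ones for both genes. The lncRNA gene Gm34921 overlaps Dusp6 in RefSeq.

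The 2 genes for phosphatases of JNK and p38 changed in opposite directions. Dusp10 was at 48.6 and 48.7 RPKM in unstimulated and 13.7 and 13.0 RPKM in stimulated control cells. In Cd cells it was at 50.4 and 48.3 RPKM without and 13.3 and 12.7 RPKM with stimulation. It was the most even of the changed genes, with replicates at most 5.56% apart in any group. The log2 fold change was -1.86 (SE 0.055, adjusted p = 3.81e-07) in control and -1.92 (SE 0.055, adjusted p = 3.54e-07) in Cd offspring, 3.65-fold and 3.80-fold lower. Dusp16 rose from 1.14 and 1.27 RPKM to 4.46 and 4.34 RPKM in control cells, and from 0.867 and 0.992 RPKM to 4.40 and 4.49 RPKM in Cd cells. These are log2 fold changes of 1.78 (SE 0.13, adjusted p = 1.65e-05) and 2.15 (SE 0.13, adjusted p = 6.67e-06). Dusp16 rested on 86 to 106 reads in each unstimulated and 354 to 585 reads in each stimulated library. Other annotated genes, on the other strand where GENCODE gives them, overlap both Dusp10 and Dusp16.

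The atypical members gave the smallest change and the least certain one. Dusp11, the RNA phosphatase, was at 54.6 and 54.8 RPKM in unstimulated and 52.1 and 51.6 RPKM in stimulated control cells. In Cd cells it was at 56.5 and 58.4 RPKM against 51.1 and 50.1 RPKM. Its log2 fold change was -0.08 (95% interval -0.18 to 0.02, adjusted p = 0.159) in control offspring and -0.18 (-0.28 to -0.08, adjusted p = 0.00664) in Cd offspring, and both intervals lay well inside 2-fold. An antisense gene, Gm19265, is annotated over Dusp11. Dusp14 had 0.385 and 0.383 RPKM in unstimulated and 1.38 and 0.891 RPKM in stimulated control cells, and 0.357 and 0.506 against 0.693 and 1.12 RPKM in Cd cells. These levels rest on 9 to 15 reads in unstimulated and 22 to 41 reads in stimulated libraries. The log2 fold change of 1.32 in control offspring (SE 0.32, adjusted p = 0.00824) was called and that of 0.90 in Cd offspring (SE 0.32, adjusted p = 0.0404) was not. The call in control offspring was lost when any 1 of 7 libraries was left out, the exception being the Cd stimulated replicate 6, with adjusted p values of 0.0101 to 0.06 from limma. Without Dusp14 the count of called members in control offspring was 6.

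The summed level of the 10 genes changed less than its makeup. It was 639 and 605 RPKM in unstimulated and 558 and 602 RPKM in stimulated control cells. In Cd cells it was 597 and 473 RPKM without and 598 and 593 RPKM with stimulation, the lowest being the unstimulated replicate 7. Dusp1 made up 38.1% to 42.5% of the sum in unstimulated and 1.82% to 1.92% in stimulated libraries. Dusp5 went from between 8.04% and 9.58% to between 33.7% and 35.4%, Dusp2 from between 19.7% and 23.7% to between 34.4% and 37.1%, and Dusp4 from between 0.458% and 0.601% to between 10.6% and 11.2%. The inducible nuclear class as a whole held 66.2% to 74.8% of the sum without and 81.9% to 83.5% with stimulation, and the cytoplasmic ERK class 8.3% to 10.9% and 4.91% to 5.27%.

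**Figure D3:**
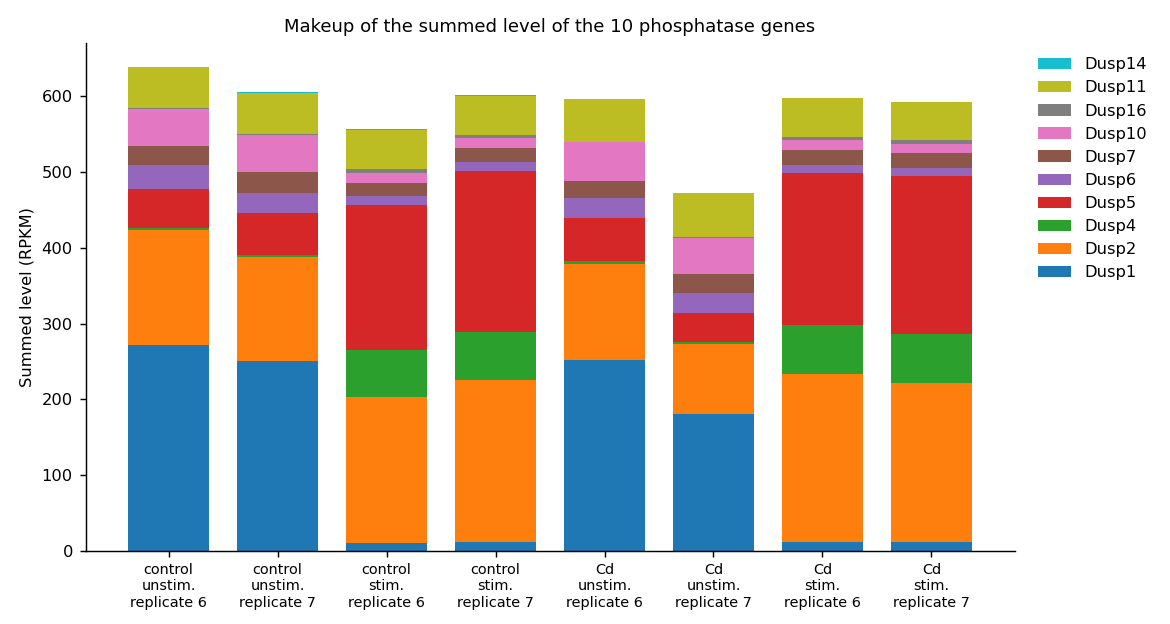
Summed level in RPKM of the 10 phosphatase genes (vertical axis, from 0) in each of the 8 libraries, stacked by gene. Dusp1 is the largest segment in each unstimulated library, and Dusp2 and Dusp5 are the largest segments in each stimulated library.

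In order of level per kilobase, unstimulated control cells had Dusp1 first, then Dusp2, Dusp11, Dusp5, Dusp10, Dusp6, Dusp7, Dusp4, Dusp16 and Dusp14, and no neighbours overlapped between their libraries. Unstimulated Cd cells had the same order except that Dusp10 stood before Dusp5, and these 2 overlapped. Stimulated control cells had Dusp2 and Dusp5 first, which overlapped, then Dusp4, Dusp11, Dusp7, Dusp10, Dusp6, Dusp1, Dusp16 and Dusp14. In stimulated Cd cells the order was Dusp2, Dusp5, Dusp4, Dusp11, Dusp7, Dusp10, Dusp1, Dusp6, Dusp16 and Dusp14, and Dusp1 and Dusp6 overlapped. Dusp1 thus went from rank 1 to rank 8 in control and rank 7 in Cd offspring, and Dusp4 from rank 8 to rank 3 in both.

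Other genes of the pathway were given by lists, beside the 18.7% of all genes called in control offspring, 11.5% higher and 7.17% lower. Of 12 other dual-specificity and ERK phosphatases tested, of 23 listed, Dusp22 alone was called in control offspring, where it rose with a log2 fold change of 1.52. Of 8 MAP kinases tested, of 10 listed, 0 were called by limma in either kind of offspring, although 5 in control and 3 in Cd offspring had an unadjusted p under 0.05, as had 67.8% and 69.0% of all genes. Of 20 upstream kinase and Ras genes, Map2k3 (log2 fold change 1.78) and Ksr1 (1.22) rose and Map2k6 (-1.82) fell. Map2k3 and Map2k6 both encode activators of p38. Of 9 other inhibitors of Ras and ERK signalling tested, of 13 listed, Spry1 (3.40), Spred1 (2.16) and Nf1 (1.18) rose, and the Ras GTPase-activating protein genes Rasa3 (-1.18) and Rasal3 (-1.15) fell. Of 19 immediate early and ERK-responsive genes, 5 rose, among them Egr3 (2.85) and Myc (2.49), and 7 fell, among them Jun (-5.82) and Fos (-5.77). Counts in Cd offspring were the same for each list except the last, with 5 higher and 6 lower.

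Transcripts that were high in cells lysed at 0 hours included both Dusp1 and the AP-1 genes Fos and Jun. Fos was at 577 and 651 RPKM in unstimulated and 11.1 and 11.2 RPKM in stimulated control cells, and Jun at 433 and 389 against 7.63 and 6.68 RPKM. The zinc finger gene Egr3, in contrast, was at 9.93 and 12.1 RPKM in unstimulated and 76.3 and 83.8 RPKM in stimulated control cells. The median log2 fold change was 0.16 over these 19 genes, -0.02 over the 12 other phosphatases, 0.17 over the 8 MAP kinases, and 0.07 over all genes.

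**Figure D4:**
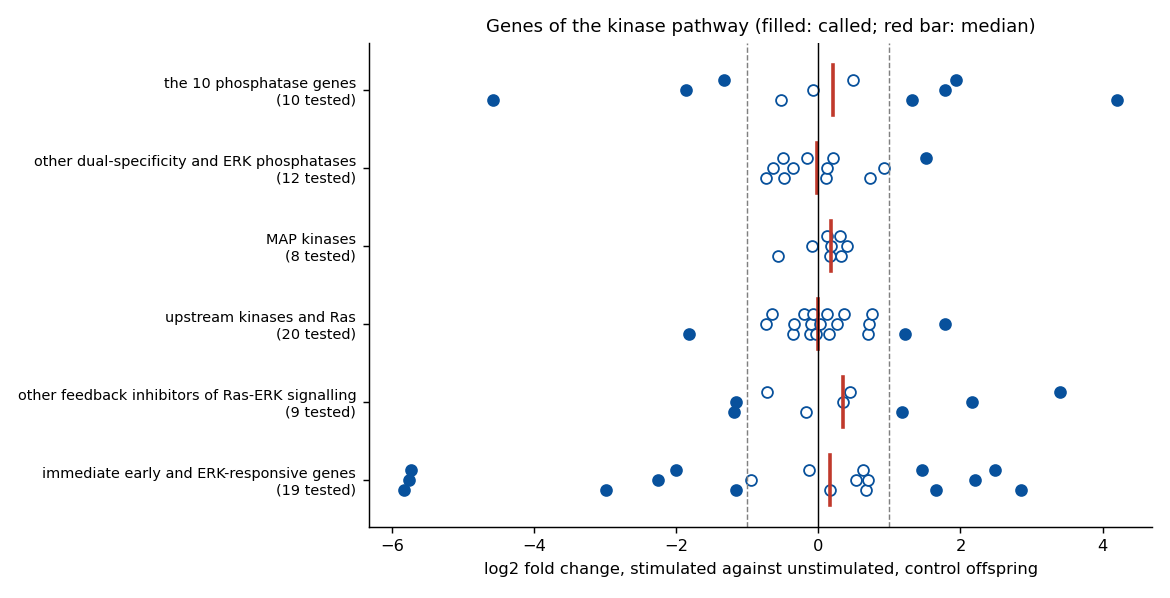
Log2 fold change, stimulated against unstimulated cells of control offspring, on the log2(RPKM + 0.1) scale (horizontal axis), for the tested genes of the phosphatase set and of 5 lists of the same pathway (vertical axis). Filled points were called, open points were not, red bars are medians and dashed lines mark 2-fold. Of the 8 MAP kinases 0 are filled. Of the 10 phosphatase genes 7 are filled, among them Dusp14, which reached the tested minimum only through its stimulated libraries.

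Cd offspring were then compared with control offspring in unstimulated cells. This asks whether prenatal Cd left the phosphatase genes at another level in cells lysed at 0 hours. None of the 10 genes was called at an adjusted p under 0.05 from limma, where 0.896% of all genes were called, 0.135% higher and 0.762% lower. Of the 10, 7 were lower and 3 higher in Cd offspring. An unadjusted p under 0.05 was found for 2, Dusp2 and Dusp16, against 13.9% of all genes. Dusp2 had the lowest adjusted p, 0.257, with a log2 fold change of -0.41 (95% interval -0.73 to -0.10), and for Dusp16 it was -0.35 (-0.66 to -0.04, adjusted p = 0.322). The libraries did not overlap for 5 genes, Dusp2, Dusp6, Dusp7 and Dusp16, which were lower in Cd offspring, and Dusp11, which was higher, against 42.3% of all genes. The median log2 fold change was -0.16 over the 10 genes and 0.01 over all genes.

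The differences of the 4 inducible nuclear genes in unstimulated cells depended in size on the Cd unstimulated replicate 7. Dusp2 was below both control libraries in the Cd replicate 6 too, at 126 against 151 and 138 RPKM. In the Cd replicate 7, Dusp1, Dusp2, Dusp4 and Dusp5 were 33.5%, 30.2%, 49.3% and 40.3% apart from replicate 6 of the same group. The 2 unstimulated control libraries were 8.22%, 9.66%, 2.45% and 5.54% apart. The Cd replicate 7 held the lowest of the 4 unstimulated levels for 13 of the 19 immediate early and ERK-responsive genes. It did so for 32.2% of all genes. The Cd replicate 6 was lowest for 0 of the 19 and 19.7% of all genes. The control replicates 6 and 7 were lowest for 5 and 1 of the 19, and for 27.0% and 20.8% of all genes. Of the 10 phosphatase genes, 5 were lowest in the Cd replicate 7, 4 in the Cd replicate 6 and 1 in the control replicate 6. Jun, for example, was at 308 RPKM in the Cd replicate 7 and at 458 RPKM in the Cd replicate 6, and Fos at 531 and 570 RPKM. What sets the Cd replicate 7 apart was not tested.

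Without the Cd unstimulated replicate 7, the log2 fold changes of Cd against control were -0.05 for Dusp1, -0.19 for Dusp2, 0.11 for Dusp4 and 0.11 for Dusp5, and 0 of the 10 genes were called, against 0.833% of all genes. Without replicate 6 in its place, they were -0.53, -0.63, -0.60 and -0.48, and 3 genes were called lower, Dusp1 (adjusted p = 0.0352), Dusp2 (0.0458) and Dusp4 (0.0185), against 0.793% of all genes. Each of these fits takes the spread of the remaining library from the other groups. Dusp16 had -0.43 without replicate 7 and -0.26 without replicate 6.

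In stimulated cells, none of the 10 genes was called between Cd and control offspring by limma, and the share of all genes called was 0.0%. Of the 10, 0 had an unadjusted p under 0.05, as had 3.28% of all genes. The 2 groups did not overlap for 5 of the 10 genes, against 36.7% of all genes. The median size of the log2 fold change was 0.05 over the 10 genes and 0.07 over all genes, where in unstimulated cells it had been 0.16 and 0.11. Dusp14 (-0.30) and Dusp10 (-0.04) had a larger log2 fold change in size in stimulated than in unstimulated cells (0.12 and 0.02). The interaction contrast, given below, compares the signed values of the 2 states. It called neither gene, with adjusted p values of 0.749 for Dusp14 and 0.812 for Dusp10 from limma. Sizes without their sign were not tested. For Cd against control in stimulated cells, the 95% intervals measure what differences these libraries leave possible. They ran from -0.27 to 0.38 for Dusp1, -0.22 to 0.41 for Dusp2, -0.40 to 0.49 for Dusp4 and -0.37 to 0.40 for Dusp5. They were narrowest for Dusp11, -0.14 to 0.06, and widest for Dusp14, -1.06 to 0.45.

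**Figure D5:**
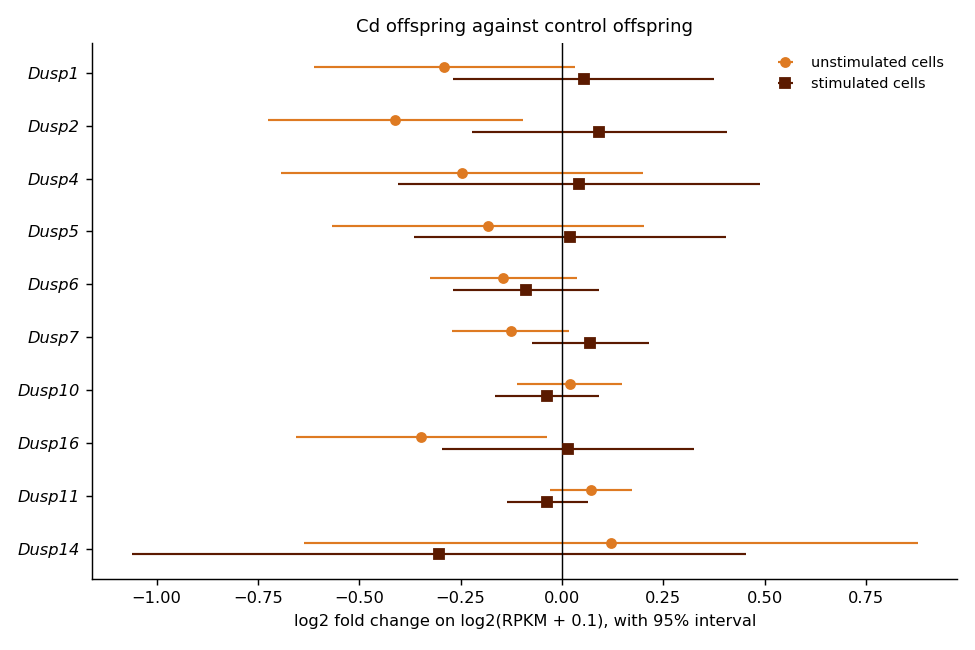
Log2 fold change of each phosphatase gene, Cd against control offspring, on the log2(RPKM + 0.1) scale (horizontal axis), in unstimulated (circles) and stimulated cells (squares). Lines are 95% intervals from limma. The intervals of Dusp2 and Dusp16 in unstimulated cells leave out 0 before adjustment, and every interval in stimulated cells includes 0.

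The difference in response asks whether stimulation moved a gene by another amount in Cd than in control offspring. None of the 10 genes was called at an adjusted p under 0.05 (limma, interaction contrast), and 0.357% of all genes were, 0.301% higher and 0.0555% lower. Dusp2 was the one with an unadjusted p under 0.05, against 10.6% of all genes. Its log2 fold change on stimulation was 0.50 higher in Cd offspring (SE 0.19, 95% interval 0.06 to 0.95, adjusted p = 0.425). For Dusp1 the difference was 0.34 (SE 0.19), for Dusp4 0.29 (SE 0.27), for Dusp5 0.20 (SE 0.23) and for Dusp16 0.36 (SE 0.19). For Dusp6, Dusp7, Dusp10 and Dusp11 it was 0.06, 0.20, -0.06 and -0.11, and for Dusp14 -0.42 (SE 0.46). Without the Cd unstimulated replicate 7 the difference for Dusp2 was 0.28 and for Dusp4 -0.06, and without replicate 6 they were 0.72 and 0.64, where Dusp4 was called (adjusted p = 0.0467). In these 2 fits 0.5% and 0.278% of all genes were called.

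The genes most like each phosphatase gene were found by the root mean square difference of their centred log2 values over the 8 libraries, among 8680 or 8681 genes with a mean of at least 5 RPKM. For Dusp1 these were Dtx1 (0.15) and Slc16a5 (0.26), for Dusp4 Ptprs (0.12) and Bcl2l1 (0.20), and for Dusp5 Furin (0.094) and Mettl1 (0.10). Dusp2 was nearest to Sf3b5 (0.070) and Nr4a1 (0.074), the latter an immediate early gene of T cell receptor signalling. Dusp6 was nearest to Pik3ip1 (0.064) and Fam102a (0.069), Dusp7 to Cd2 (0.041) and Galnt2 (0.042), and Dusp10 to Rgs14 (0.061) and Tspyl4 (0.062). For Dusp11, Dusp14 and Dusp16 they were Tcf12 (0.023) and Ankrd10 (0.024), Lpgat1 (0.18) and Irgm1 (0.19), and Bend3 (0.057) and Kctd17 (0.089). On the same scale the spread of the gene itself about its mean ran from 0.072 for Dusp11 to 2.21 for Dusp1.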

How the data were processed

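RNA sequencing covered 8 libraries, grouped by the sample labels. The authors used subread to align reads to mm10 and featureCounts to count them over RefSeq transcripts; versions, strand setting and treatment of multiple alignments are not given in the sources used here. The deposited values are log2(RPKM + 1) + 0.0001, read from the values, and were turned back into RPKM. Whole reads were recovered in each library for all 17794 genes above 0 in at least 2 libraries (100% of them, to within 1e-05 reads). The totals, with a median of 19434588 reads, set the depth of each value.

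Genes with a mean of at least 0.5 RPKM were tested on log2(RPKM + 0.1), which understates the change of low genes, by limma 3.58.1 under R 4.3.3 in a model of the 4 groups with 4 residual degrees of freedom and a mean-variance trend. The plan had assumed RPKM in the table. Benjamini-Hochberg adjustment covered all 12605 genes. Stimulation was called when the adjusted p was under 0.01 with over 2-fold change, Cd and the difference in response at an adjusted p under 0.05. With 2 against 2 libraries, an exact permutation test cannot give a two-sided p below 0.333. Nothing names the animals of the libraries, so p values measure the spread between these samples. The pipeline was tested on simulated data. The members and lists, and the rule for naming genes (all members, the 2 most alike genes of each, and of each list the 2 called genes with the largest increase and decrease), were chosen with earlier results of these data known. Nf1 was named after its value was seen. Results for some single genes are not reported here. Promoter windows came from RefSeq; Dusp4 was not matched. Python 3.11.15 (pandas 2.3.3, numpy 2.4.6, matplotlib 3.10.9) made the tables and plots.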

Additional observations from a re-analysis of the deposited data

How the results depend on the processing

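Alternatives changed the pseudocount (0.5 or 1 RPKM), the filter (none, or a mean of at least 1 RPKM), the scaling (by median of ratios, or quantiles), the fold (any) and the fit (without a trend, with a replicate block, by limma voom on recovered reads, on a comparison's own libraries, or with each library left out). The number of members called for stimulation was 6 or 7 in either kind of offspring under all of them other than any fold. With a mean of at least 1 RPKM, Dusp14 was not tested. The call of Dusp14 in control offspring was lost with a pseudocount of 0.5 (log2 fold change 0.87) or 1 RPKM (0.62), with no filter (adjusted p = 0.0135), with only the libraries of the comparison (0.0125), and with median-of-ratios (0.0112) or quantile scaling (0.0151); it was kept with no trend, with voom and with a block within each kind of offspring. Quantile normalization moved the median of all genes from 0.07 to -0.03 for stimulation in control offspring.

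Equal replicate numbers were not shown to pair the libraries. Deviations from the group mean correlated, across genes, between -0.112 and 0.0635 over all pairs of groups. Only unstimulated and stimulated cells of the same kind of offspring could share an animal. Their deviations correlated at 0.0635 in control and 0.00851 in Cd offspring. A replicate block shared by both kinds of offspring lowered the count of members called for stimulation in control offspring from 7 to 6. Dusp14 was lost there (log2 fold change 1.32, adjusted p = 0.0143 from limma). The count stayed at 6 in Cd offspring and at 0 in the other 3 comparisons. With a block within each kind of offspring, it stayed at 7 in control and at 6 in Cd offspring.

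With each library left out, the count was 6 to 7 for stimulation in either kind of offspring, 0 to 3 for Cd in unstimulated cells, 0 for Cd in stimulated cells and 0 to 1 for the difference in response. All 13 changes of sign came with a library left out, in values that were not called. For Cd in unstimulated cells, the log2 fold change ran from -0.60 to 0.11 for Dusp4, -0.48 to 0.11 for Dusp5, -0.012 to 0.050 for Dusp10 and -0.083 to 0.32 for Dusp14. In stimulated cells it ran from -0.058 to 0.096 for Dusp5, -0.076 to 0.0036 for Dusp10, -0.61 to 0.0036 for Dusp14 and -0.0042 to 0.035 for Dusp16. The difference in response ran from -0.064 to 0.64 for Dusp4, -0.092 to 0.50 for Dusp5 and -0.039 to 0.15 for Dusp6. With 2 libraries a group, small differences could not be resolved, and 9 to 41 reads limit Dusp14.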
